A study of Mus musculus with 6 samples.

Results

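The miR-23, miR-27 and miR-24 miRNAs of the mouse come from 2 paralogous clusters, and 9 of the 1881 mouse miRNAs on the arrays carry their names. The members were taken by name: the guide arms mmu-miR-23a-3p, mmu-miR-23b-3p, mmu-miR-27a-3p, mmu-miR-27b-3p and mmu-miR-24-3p, and the star arms mmu-miR-23a-5p, mmu-miR-27a-5p, mmu-miR-24-1-5p and mmu-miR-24-2-5p, written without the mouse prefix from here on. A guide arm is the strand of a miRNA hairpin that is usually kept and used, and a star arm is its partner. All 5 guide arms were detected on all 6 arrays. Of the star arms, miR-24-2-5p and miR-23a-5p were detected on the LPS arrays only, and miR-27a-5p and miR-24-1-5p on no array, so that 7 of the 9 members entered the test over 412 miRNAs.

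The miRNAs were measured in exosomes, the small vesicles that cells release, from the culture supernatant of RAW 264.7, a mouse macrophage line. In the LPS group (n = 3) the cells were given LPS (lipopolysaccharide), an outer membrane molecule of bacteria that macrophages sense by TLR4, at 2 µg/mL in complete medium, and the supernatant was taken at 72 h. The control group (n = 3) was the same line described as normal, and no culture time is given for it, so that LPS and culture time cannot be told apart. Both groups rest on this 1 cell line, and vesicles were isolated by size-exclusion chromatography. Nothing in the labels says that replicates were separate cultures, so the p-values cover the spread among these arrays, and that spread may be technical. Each sample was hybridised to 1 single-colour array, and the number of arrays limits the precision.

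Each cluster is transcribed as 1 primary transcript, from which the nuclear enzyme Drosha releases 3 hairpins that the cytoplasmic enzyme Dicer then cuts to the mature arms. In mouse blood cells the miR-23a cluster is a known target of the myeloid transcription factor PU.1 and favours myeloid over lymphoid development. Members of the miR-27 family are known to repress PPARγ, a nuclear receptor that damps inflammatory gene expression in macrophages. miR-23 is known in human cells to repress glutaminase, the enzyme that starts glutamine breakdown, and miR-24 to repress cell cycle genes such as E2F2 and MYC.

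In the RefSeq gene table (assembly GRCm38.p6, consulted for names and neighbouring genes only), Mir23a, Mir27a and Mir24-2 lie on the plus strand of chromosome 8, inside no other gene, between Nanos3 and Zswim4. Mir23b, Mir27b and Mir24-1 lie on the plus strand of chromosome 13 within Aopep, an aminopeptidase gene. Mature miR-24-3p has the same sequence from both loci, so its signal is a sum over them, whereas the miR-23 and miR-27 guide arms have a name and probes for each locus. By the deposited mm9 positions, the brighter probe lies at chr8:86732466-86732482 for miR-23a-3p and at chr8:86732631-86732646 for miR-27a-3p. That of miR-23b-3p lies at chr13:63401842-63401857 and that of miR-27b-3p at chr13:63402073-63402088. As deposited, the interval spans 17 bases for the 18-base miR-23a-3p probe. It spans 16 for the 17-base probes of miR-27a-3p, miR-23b-3p and miR-27b-3p, so these intervals fall short of the whole probe. The brighter probe of miR-24-3p is given both positions, chr8:86732778-86732795 and chr13:63402563-63402580.

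The mature sequences of 8 of the 9 members matched the RefSeq table of build GRCm38.p6, miR-23b-3p being the exception. They are shown for the arms that were measured and for both miR-24 star arms, 5′ to 3′, with the seed (bases 2 to 8), the stretch that pairs with target mRNAs, in capitals.
miR-23a-3p: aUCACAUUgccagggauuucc
miR-27a-3p: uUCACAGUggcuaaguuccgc
miR-27b-3p: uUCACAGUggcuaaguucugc
miR-24-3p: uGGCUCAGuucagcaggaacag
miR-24-2-5p: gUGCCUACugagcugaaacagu
miR-24-1-5p: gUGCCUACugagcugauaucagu
miR-27a-3p and miR-27b-3p share the seed UCACAGU and differ along their 21 bases by C19U, counted from the 5′ end of miR-27a-3p. The miR-23a-3p seed UCACAUU is a different one. The 2 miR-24 star arms share the seed UGCCUAC, and their sequences are the same over the first 16 bases.

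The probes of the a and b forms are nearly as alike, and those of equal length differ at a single base. The deposited 17-base probes are shown as DNA, 5′ to 3′, with the base that differs in capitals.
miR-23a-3p probe: ggAaatccctggcaatg
miR-23b-3p probe: ggTaatccctggcaatg
miR-27a-3p probe: gcGgaacttagccactg
miR-27b-3p probe: gcAgaacttagccactg
Counted from the 5′ end of the a form's probe, the difference is A3T for the miR-23 pair and G3A for the miR-27 pair, in each case near the end of the probe that pairs with the 3′ end of the miRNA. The signal of miR-23a-3p given below comes from its brighter, 18-base probe, and the signals of the other 3 forms come from the probes shown. Cross-binding between the a and b forms was not tested. Both miR-27 probes cover bases 5 to 21 of the mature miRNA, so the differing base lies inside them.

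The arrays of the groups differed before any scaling. The LPS arrays detected 428 ± 17.1 miRNAs and the control arrays 219 ± 8.14 (SD, n = 3 each). The 75th percentile of the signal over the 198 miRNAs detected on every array was 2229 ± 180 intensity units in LPS and 477 ± 41.0 in control (SD, n = 3 each), a 4.67-fold difference, while 4 spiked-in RNAs had 0.878 times the control signal on the LPS arrays. Signals below were divided by each array's own 75th percentile, so a change is relative to the miRNAs that all arrays share, whose median change was 0.77 on the log2 scale. Across the 198 miRNAs the log2 values correlated with r of 0.596 to 0.612 between groups and of 0.998 or more within a group. The groups thus differed by more than a factor common to an array, and scaling does not remove that. More vesicles and more miRNA per vesicle cannot be told apart in these samples, nor from other causes, and the cause was not tested. All arrays lay on 1 slide, whose first row held LPS 1 together with the 3 control arrays and whose second row held LPS 2 and 3. The feature size fraction recorded in the files was 0.812 to 0.829 on the LPS arrays and the default of 0.6 on the control arrays, and its part in the results was not tested.

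All 5 guide arms were higher in LPS exosomes, by 1.22 to 1.71 on the scaled log2 scale (2.34-fold to 3.26-fold), with no overlap between the groups. With this processing the values of the miR-23 arms and miR-27b-3p were the larger ones, and those of miR-27a-3p and miR-24-3p the smaller. The members' median change was 1.61, against 0.77 over all 198 miRNAs detected on every array, of which 21.7% changed by the members' median or more. A rise was common here, since 58.1% of the 198 were called higher and 38.4% lower, and in 58.6% every LPS array lay above every control array. In the order of the 198 changes, largest first, the members stood at 36 (miR-23b-3p), 39 (miR-23a-3p), 43 (miR-27b-3p), 58 (miR-27a-3p) and 66 (miR-24-3p).

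miR-23a-3p, the first miRNA of the chromosome 8 cluster, had scaled signals of 10745, 12013 and 11528 on the LPS arrays, against 3625, 3529 and 3632 on the control arrays. Every LPS array was brighter than every control array, and the control arrays lay close together. That is 3.18-fold, or 1.67 in log2 (SE 0.05), with an adjusted p of 1.95e-07 (limma, Benjamini-Hochberg over the 412 miRNAs). Its counterpart on chromosome 13, miR-23b-3p, had 400.0, 433 and 414 on the LPS arrays, against 130, 127 and 126 on the control arrays. Again no LPS array came near the control arrays. Its difference was 1.71 (SE 0.04, 3.26-fold, adjusted p = 9.44e-08 in limma). Before scaling, its control signals of 41.3 to 47.8 units stood not far above 31.1 to 34.4, the lowest signals well above background on those arrays.

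miR-27a-3p, which lies between miR-23a and miR-24-2 in its cluster, had scaled signals of 3498, 3699 and 3799 on the LPS arrays, against 1447, 1456 and 1436 on the control arrays. The LPS arrays again lay apart from a narrow control group. The difference was 1.34 (SE 0.04, 2.53-fold, adjusted p = 2.48e-07 in limma). miR-27b-3p, the chromosome 13 form with the same seed, had 772, 875 and 875 on the LPS arrays, against 273, 276 and 275 on the control arrays. LPS 2 and 3 were nearly equal and LPS 1 lower, and all exceeded the controls. The difference was 1.61 (SE 0.06, 3.06-fold, adjusted p = 4.36e-07 in limma).

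miR-24-3p, which both clusters encode, had scaled signals of 3725, 3899 and 4052 on the LPS arrays, against 1680, 1662 and 1656 on the control arrays. It too showed no overlap, with the smallest separation of the 5 guide arms. The difference was 1.22 (SE 0.04, 2.34-fold, adjusted p = 3.87e-07 in limma).

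LPS 1 had the lowest scaled signal of the LPS arrays for each of the 5 guide arms, and it is the LPS array that shared the slide's first row with the controls. With the row as a block the changes were 1.16 to 1.65, and within the first row, with 1 LPS array, 1.20 to 1.69. In both fits the LPS effect rests on LPS 1 alone, since the second row holds no control, so they give values with no check by a second LPS array. Without scaling, the 5 guide arms together gave 28602, 36220 and 35467 intensity units on the LPS arrays, against 2281, 2658 and 2582 on the control arrays. The single arms were then 10.9-fold (miR-24-3p) to 15.3-fold (miR-23b-3p) brighter in LPS. As a share of the signal of all detected miRNAs on an array, the members held 5.09% ± 0.266 in LPS and 2.30% ± 0.0315 in control (SD, n = 3 each; two-sided exact permutation p = 0.1, the smallest that 3 arrays against 3 allow).

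**Figure D1:**
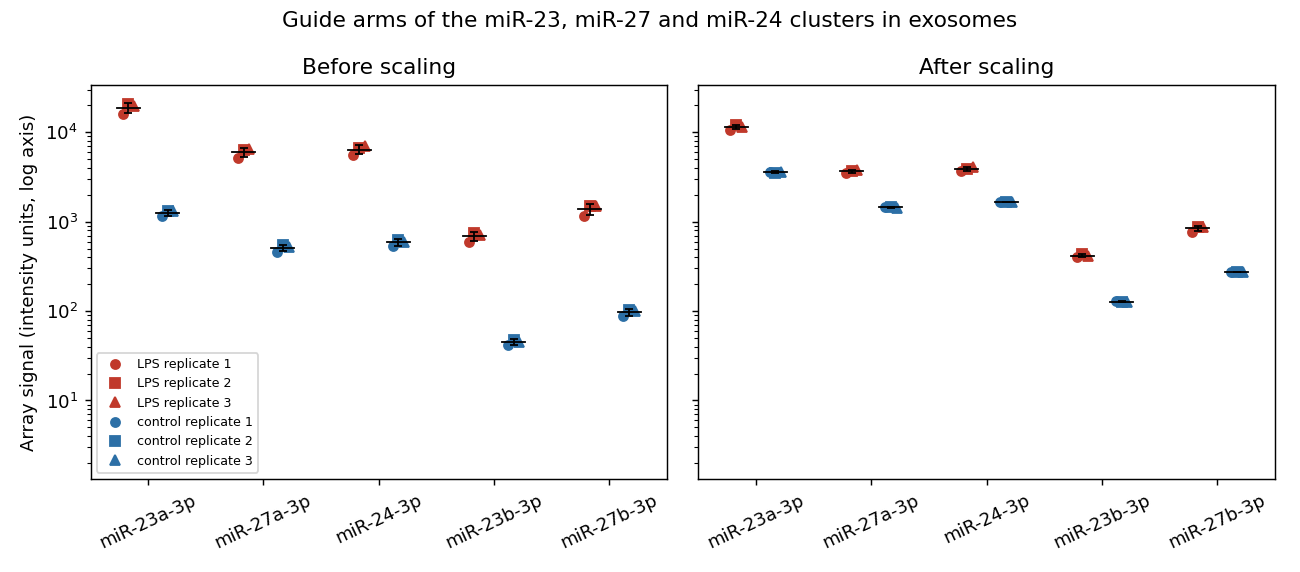
Array signal of the 5 guide arms (vertical log axis, intensity units) before scaling (left) and after division by each array's 75th percentile (right). Each symbol is 1 array, LPS in red and control in blue, with the mean and SD of 3 arrays as a bar, and in both panels the LPS arrays of every guide arm lie above its control arrays.

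**Figure D2:**
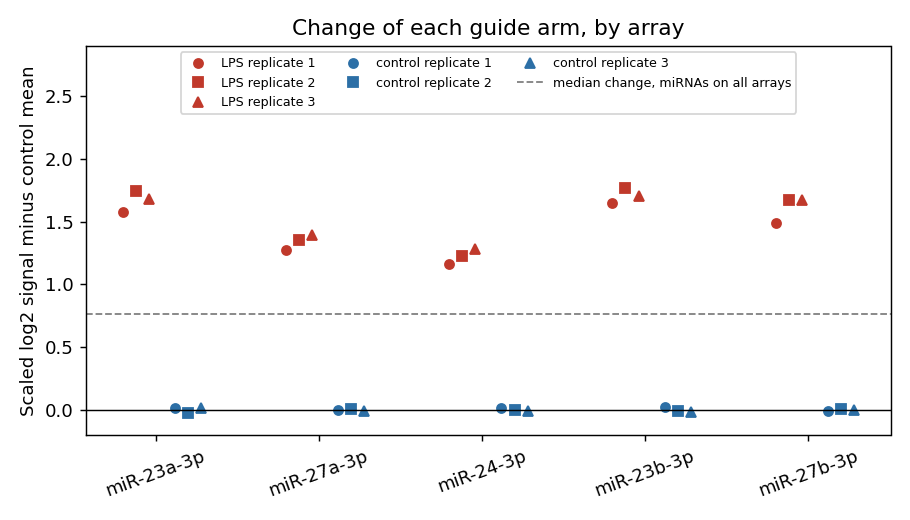
Scaled log2 signal of each guide arm minus its control mean, by array (vertical axis, log2). The dashed line at 0.77 is the median change of the 198 miRNAs detected on all 6 arrays, and every LPS point lies above it.

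The amount of change also depended on the probe. Each guide arm has 2 probes that differ in length by 1 base, and all 10 probes were brighter in LPS. For miR-23a-3p the 18-base probe changed by 1.67 and the 17-base probe by 1.77. For miR-23b-3p the 17-base probe changed by 1.71 and the 16-base probe by 1.61. The probes of 1 miRNA thus differed by more than the 2 miR-23 forms did. For miR-27a-3p the 17-base and 16-base probes gave 1.34 and 1.23, for miR-27b-3p 1.61 and 1.43, and for miR-24-3p the 18-base and 17-base probes gave 1.22 and 1.21. The dimmer probes of miR-23b-3p and miR-27b-3p were well above background on 3 of 3 LPS arrays and 0 of 3 control arrays. None of the guide arm spots was saturated.

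Whether the a and b clusters changed alike was asked on each array by itself, as the log2 signal of the a form minus that of the b form, from which a factor common to a whole array cancels. The level of such a difference mixes the response of 2 probes, so only its change between groups is read. miR-23a-3p minus miR-23b-3p was 4.75, 4.79 and 4.80 on the LPS arrays, against 4.81, 4.80 and 4.85 on the control arrays. The LPS values lay just below the control values, by 0.04 on the log2 scale (exact permutation p = 0.1, adjusted p = 0.125 over 10 pairs). With probes of 17 bases for both forms, a setting chosen after seeing the data, the change was 0.06 and the groups overlapped (exact permutation p = 0.3), so the pair has no readable direction.

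miR-27a-3p minus miR-27b-3p was 2.18, 2.08 and 2.12 on the LPS arrays, against 2.40, 2.40 and 2.39 on the control arrays. All LPS values lay below all control values, so that the change of miR-27a-3p was smaller than that of miR-27b-3p by 0.27 on the log2 scale (exact permutation p = 0.1, adjusted p = 0.125 over 10 pairs). The change was −0.22 within the first slide row, −0.19 with the dimmer probes, −0.065 with quantile normalization (exact permutation p = 0.2) and −0.468 with the gene total signal. On control 1 and control 3 the gene total of miR-27b-3p (18.5 and 21.1) held its brighter probe alone. On the LPS arrays it held both probes, so −0.468 sets unlike probes against each other. The change was 0.248 with normexp background correction. That correction adds an offset of 50, against unscaled control signals of 87.1 to 104 units for miR-27b-3p, and the part of the offset was not tested. In the authors' deposited value table the change was 0.235, miR-27b-3p changing less than miR-27a-3p, but the groups overlapped (exact permutation p = 0.2). The sign of the pair's change thus depended on the processing.

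Guide arms of 1 cluster were set against each other in the same way. The changes of the other guide arms exceeded that of miR-24-3p, by 0.48 for miR-23b-3p, 0.44 for miR-23a-3p, 0.39 for miR-27b-3p and 0.12 for miR-27a-3p. That of miR-23a-3p exceeded that of miR-27a-3p by 0.33. This order depended on the processing. With normexp, miR-23b-3p had the smallest of the 5 changes (0.69). The offset of 50 in that correction lay above the unscaled control signals of miR-23b-3p, 41.3 to 47.8 units. In the authors' deposited value table miR-27b-3p had the smallest change (1.18, against 1.60 for miR-24-3p there). In 8 of the 10 pairs the LPS and control arrays did not overlap (exact permutation p = 0.1 each, adjusted p = 0.125). Of the 10, the 8 pairs other than the paralogue ones were added after seeing the data. The exceptions were miR-23a-3p with miR-27b-3p (change 0.06, exact permutation p = 0.3) and miR-23b-3p with miR-27b-3p (0.09, p = 0.2). Such separation was the rule on these arrays, as 94.5% of all pairs of the 198 miRNAs did not overlap either. No pair passed 0.05, which 3 arrays against 3 cannot reach.

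**Figure D3:**
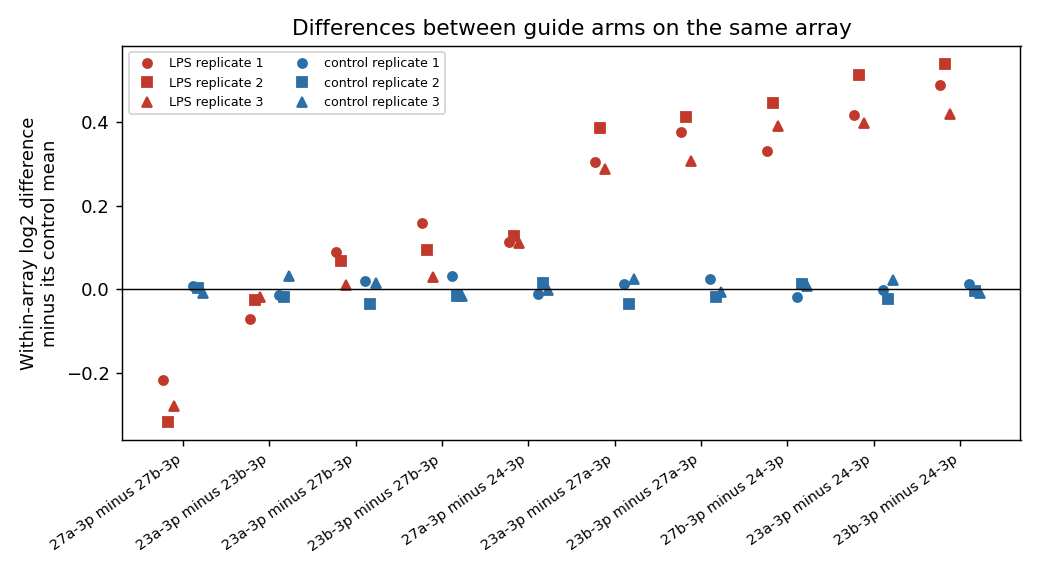
Within-array log2 difference between 2 guide arms, minus its mean on the control arrays (vertical axis, log2), for the 10 pairs. Each symbol is 1 array, LPS in red and control in blue, and the mean change runs from −0.27 for miR-27a-3p minus miR-27b-3p to 0.48 for miR-23b-3p minus miR-24-3p.

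The star arms gave little signal. miR-24-2-5p, the partner strand of miR-24-3p on chromosome 8, had unscaled signals of 33.4, 45.6 and 44.2 units on the LPS arrays, against −0.04, 2.04 and 2.84 on the control arrays. It was well above background on 3 of 3 LPS arrays and 0 of 3 control arrays. Its fitted change of 0.93 (SE 0.07, adjusted p = 1.8e-05 in limma) is measured from the floor of 13.0 on the scaled signal. The lowest control signals well above background scale to 82.5 to 98.2, above its LPS signals, so its direction after scaling is not readable and no fold is given. Its call ended with the floor raised 2-fold (0.006), with well above background as detection (0) and with the gene total signal (1.77), and it was −0.64 with normexp background correction. With it, 6 of the 7 tested members were called higher and 0 lower, where 65.5% of the 412 tested were called higher and 26.7% lower. Both miR-24-2-5p and miR-23a-5p entered the test through the LPS arrays alone, so that count is not read. The 5 guide arms, detected on all arrays, were called higher, where 58.1% of the 198 miRNAs so detected were.

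miR-23a-5p had unscaled signals of 27.7, 27.1 and 27.9 units on the LPS arrays, against 7.11, 5.63 and 5.66 on the control arrays. No array held it well above background, although the files flag it as detected on 3 of 3 LPS arrays. After scaling the groups overlapped, and the change of −0.05 (SE 0.16, adjusted p = 0.805 in limma) took the opposite sign in 11 of 23 alternatives. miR-24-1-5p, the chromosome 13 partner of miR-24-3p, had 8.79, 6.51 and 6.24 units on the LPS arrays, against 3.99, 0.464 and 3.54 on the control arrays. miR-27a-5p lay between −5.16 and 0.480 units on the LPS arrays, against −3.19 to −0.757 on the control arrays. Neither was detected on any array, so the star arm of the chromosome 13 miR-24 hairpin could not be set against that of chromosome 8.

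Further miRNAs of the same loci were not detected either. The star arms miR-23b-5p and miR-27b-5p, and miR-3074-5p, miR-3074-1-3p and miR-3074-2-3p, whose genes lie on the opposite strand of the miR-24 hairpins, made 0 of 5 detected on any array. The 4 other miRNAs on the array that share the seed GGCUCAG of miR-24-3p (miR-5124b, miR-6369, miR-6410 and miR-6413) were likewise detected on no array. For miR-23a-3p and the miR-27 arms the RefSeq table, in which miR-23b-3p was not matched, gave no further miRNA on the array with the same seed. miR-128-3p, known mainly from the nervous system, has a seed (CACAGUG) that overlaps that of miR-27 with a shift of 1 base. It had log2 values of 8.65, 8.66 and 8.66 on the LPS arrays, against 6.50, 6.55 and 6.71 on the control arrays. The groups did not overlap, with a change of 2.07 (SE 0.06, adjusted p = 1.72e-07 in limma), though it was −0.79 with the gene total signal. That total was not checked against its own probes, the brightest of which was 19.6-fold brighter in LPS before scaling.

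The miRNAs nearest to the guide arms in pattern were sought by the root mean square distance between log2 profiles over the 6 arrays, each centred on its own mean. Among the non-members detected on all arrays, miR-20a-5p was nearest to the members' mean profile at 0.036, then miR-365-3p at 0.0366, miR-29c-3p at 0.0487, miR-7a-5p at 0.053 and miR-29b-3p at 0.056. The members themselves lay at 0.0557 (miR-27b-3p) to 0.145 (miR-24-3p) from their own mean. So each of these non-members except miR-29b-3p lay nearer to the members' mean profile than any member did. miR-29b-3p lay about as near as the nearest member, and the pattern was not particular to the members. miR-20a-5p, of the miR-17~92 cluster, changed by 1.54 (SE 0.04), and miR-29b-3p, a regulator of collagen genes, by 1.55 (SE 0.05), or −1.42 with the gene total signal. The gene total of miR-29b-3p was not checked against its own probes, and without scaling its brightest probe changed by 3.78.

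Known macrophage miRNAs give the scale of these changes. Of 12 miRNAs listed as responsive to LPS, 8 were tested and 4 were detected on no array. The 7 detected on all arrays were called higher, where 58.1% of the 198 were, with a median change of 2.74. The remaining tested one was detected on the LPS arrays only, so it entered the test through that group and is not counted. miR-155-5p, induced by Toll-like receptor signalling, changed by 4.18 (SE 0.07; −1.04 with the gene total signal), and miR-146a-5p, a brake on that signalling, by 1.34 (SE 0.06), the same as miR-27a-3p to 2 decimals. The gene total of miR-155-5p was not checked against its own probes, the brightest of which was 85.1-fold brighter in LPS before scaling. Of 9 myeloid miRNAs on the array, 8 were tested. The 5 of them detected on all arrays were called higher, where 58.1% of the 198 were, with a median of 1.08. The other tested myeloid miRNAs were detected on the LPS arrays only, so they entered the test through that group and are not counted. The myeloid miR-223-3p and miR-142a-3p had values of 1.08 (SE 0.03) and 0.68 (SE 0.13). Normexp background correction adds an offset of 50, above their unscaled control signals of 35.5 to 45.2 units. With it their values were 0.10 and −0.31, and the call of miR-223-3p ended. That of miR-142a-3p also ended with quantile normalization (0.24) and within the first slide row (0.43). With that correction the median of all miRNAs was 0.13 and that of the members 1.23. Of 6 serum and erythroid miRNAs, 5 were detected on no array, among them the defining miR-451a and miR-122-5p, and miR-192-5p was detected on the LPS arrays only. Its scaled LPS signals of 93.2 to 94.9 lay within the 82.5 to 98.2 of the lowest control signals well above background, so its direction is not readable. The part of these markers in the results was not tested.

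The 5 guide arms were higher in LPS under every scaling tried. Scaled to the spiked-in RNAs the members' median change was 4.03, where the median of all 198 was 3.18. It was 3.83 without scaling, where that of all was 2.99, and 2.80 with the percentile taken over all miRNAs, where that of all was 1.96. With median centring it was 1.29 against 0.45 for all, and with quantile normalization 1.25 against 0.32. In the authors' deposited value table, which is on a log2 scale, it was 1.59 against 0.53. Under each of these settings all 5 guide arms lay above the median of all miRNAs detected on every array and were called higher.

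**Figure D4:**
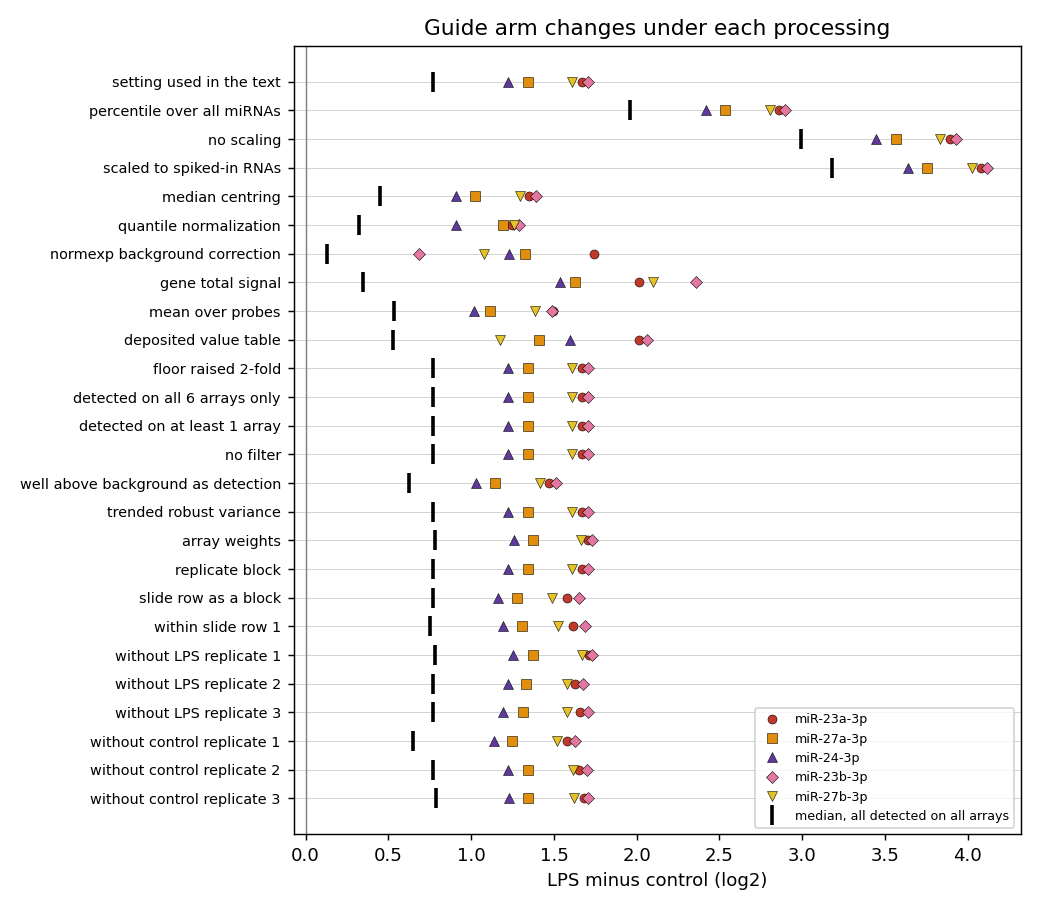
Change of each guide arm (LPS minus control, log2, horizontal axis) under every processing tried, 1 line each, with the median of all miRNAs detected on every array as a black bar. In all lines each guide arm lies to the right of 0 and of the black bar.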

How the data were processed

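Exosomal RNA of 3 LPS and 3 control samples of RAW 264.7 cells was measured on 1-colour Agilent mouse miRNA arrays. The deposited scanner files hold linear intensity values, background-subtracted by Agilent Feature Extraction 10.7.1.1, per the file headers. The submitters' processing notes name version 9.1. A second deposited table by the authors holds 1 log2 value per miRNA and sample. Its column medians are 2.73 to 2.74, no source used here says how it was normalized, and it correlates across the 198 miRNAs detected on all arrays with the log2 signal at r = 0.896 to 0.963. It was tried in place of the scanner signal.

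For each probe the mean processed signal of its spots was taken, leaving out outliers and control spots, and the brightest probe over the 6 arrays stood for a miRNA. Arrays were scaled by their 75th percentile across miRNAs that all arrays detected, then floored at 13.0 (3.70 in log2) and put on the log2 scale. Detection is the flag in the files; a probe is called well above background where more than 0.5 of its spots are. Testing required detection on all 3 arrays of either group. The model was limma 3.58.1 (R 4.3.3; lmFit and eBayes), LPS minus control, and p-values were adjusted by Benjamini-Hochberg over the 412 miRNAs, with 0.05 as threshold. Differences within an array were compared by two-sided exact permutation over arrays.

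On simulated data over 412 miRNAs the fit recovered 88% of changes of 0.5 in log2 and 100% of changes of 1, 2 and 3, and called 6 of 212 unchanged miRNAs. No replicates held identical values, and 0 per-sample columns were left unused. The alternatives were other scalings, normexp background correction (offset 50), gene totals, probe means, other filters, floors and detection calls, array weights, a robust variance, a block for replicate number or slide row, and omission of each replicate in turn. Same-numbered LPS and control samples deviated from their group means with r of −0.401, −0.221 and −0.279, and differently numbered ones with r of −0.324 to 0.431. This gave no sign that the numbers pair the samples. It cannot exclude pairing, since deviations from a mean of 3 arrays are not independent of each other.

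The members, the lists and the tests were chosen with earlier results of these data known. Named miRNAs are the 9 members, the other miRNAs of their loci, miRNAs with the same seed and miR-128-3p. The 5 nearest in pattern and 6 known LPS-responsive, myeloid, serum and erythroid miRNAs are named too. miR-192-5p was named after its values were seen.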

Additional observations from a re-analysis of the deposited data

How the results depend on the processing

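The 5 guide arms kept their direction and their call in all 25 alternatives, with changes of 1.25 to 4.08 for miR-23a-3p, 0.69 to 4.12 for miR-23b-3p, 1.02 to 3.75 for miR-27a-3p, 1.08 to 4.03 for miR-27b-3p and 0.91 to 3.64 for miR-24-3p. Counts over all miRNAs moved more. The 270 higher calls became 114 with normexp, 115 when detection on every array was required and 170 with well above background as detection, where fewer miRNAs were tested in the last pair. The 110 lower calls became 59 with the percentile over all miRNAs, 39 unscaled, 38 with spiked-in RNAs, 284 with normexp and 269 with no filter, which tests all 1881. Higher calls made up 71.1% of calls, but 85.1%, 90.3% and 90.7% under those 3 scalings and 28.6% with normexp, where 2 members were called lower, miR-24-2-5p (−0.64) and miR-23a-5p. Normexp adds an offset of 50 before scaling. The unscaled control signals of these 2 arms, −0.04 to 7.11 units in the setting of the text, lay far below it. Their lower calls therefore cannot be read as a fall, and other dim miRNAs are open to the same limit. The miR-23 pair, −0.04, was 1.055 with normexp, 0.006 with the mean over probes, 0.156 with the dimmer probes, 0.062 with length-matched probes, −0.348 with the gene total and −0.071 with the row as a block or within row 1. The miR-27 pair, −0.27, was 0.248 with normexp, 0.235 in the value table, −0.065 with quantile normalization and −0.468 with the gene total. The variance trend and array weights do not enter the permutation tests of the pairs. The cause of these changes was not tested.

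miR-23a-5p, −0.05 in the text, was 0.593 with the percentile over all miRNAs, 0.555 unscaled, 0.561 with spiked-in RNAs, 0.502 with quantile normalization, 9.02 with the gene total, 0.513 with the mean over probes, 0.298 in the value table, 0.10 with the row as a block and 0.134 within row 1, and −0.153 to 0.044 when each replicate was left out (0.004 without LPS replicate 2, 0.044 without control replicate 1). Among the miRNAs named for comparison, the gene total turned miR-155-5p (−1.039), miR-128-3p (−0.789) and miR-29b-3p (−1.419), and normexp turned miR-142a-3p (−0.314) and miR-192-5p (−0.618). The gene totals of miR-155-5p, miR-128-3p and miR-29b-3p were not checked against their own probes. Leaving out each replicate gave 264 to 272 higher and 108 to 119 lower calls, 6 members higher and 0 lower, −0.048 to −0.022 for the miR-23 pair and −0.298 to −0.248 for the miR-27 pair. With the replicate block, 270 were higher, 110 lower, 6 members higher and 0 lower, and the pairs were at −0.038 and −0.271 (exact permutation p = 0.25 within blocks, the smallest possible, for both). The dim signals of the control arrays limit what can be read of the star arms.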

Other observations

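The gene total signal in the scanner files, used here only as an alternative, held other members' signal for 2 star arms. On LPS 1, LPS 2 and LPS 3 the total listed for miR-23a-5p was 6094, 8130 and 7601, which equals the total of miR-23a-3p (6090, 8127 and 7597) plus that of the 1 probe of its own that exceeded 3 errors (3.71, 3.71 and 3.75). On the control arrays, where none of its probes exceeded 3 errors, the listed total was 1.47, 1.39 and 1.53. On LPS 1 the total listed for miR-24-2-5p was 224.9, which equals the 215.4 of miR-23b-3p plus 9.57 from its own brighter probe. On LPS 2 and LPS 3 its listed totals of 22.2 and 21.3 equalled the sum of its own probes. The totals of the 5 guide arms equalled the sum of their own probes over 3 errors on all 6 arrays, to within 0.01 units. The changes of 9.02 for miR-23a-5p and 1.77 for miR-24-2-5p obtained with the gene total therefore do not rest on those arms' own probes alone. On the control arrays the total of miR-23b-3p (8.76, 10.1 and 9.68) held its brighter probe alone. So did that of miR-27b-3p on control 1 and control 3 (18.5 and 21.1). On the LPS arrays both probes of these arms were counted. The pair changes of −0.348 and −0.468 with the gene total thus set unlike probes against each other.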
